A study of Homo sapiens with 30 samples.

Results

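Small airway epithelial (SAE) cells, which line the narrow branches of the human lung, were exposed to multi-walled carbon nanotubes (MWCNT, nested tubes of rolled carbon sheet) at 100 ug/ml for 1 h and compared with cultures that received no particle for 1 h. The comparison was defined by the sample labels alone and holds 6 of the 30 arrays of the series, 3 exposed and 3 control, described across all 11963 genes that the array annotation pairs with 1 symbol. Where a gene had several probe sets, the set that was brightest on average over all 30 arrays stood for it. Other groups of 3 arrays are used only to place these changes: MWCNT at 10 ug/ml for 1 h, titanium dioxide nanobelts (TiO2-NB, flat mineral fibres) at 100 ug/ml for 1 h, and MWCNT at 100 ug/ml and no particle for 24 h. Every culture came from commercially supplied cells plated in flasks, the particles were added straight into the medium, and RNA was taken from the washed cells that still adhered. The labels call the replicates biological and say nothing of separate donors or passages, so p values measure the spread between these cultures. Values are log2 expression as deposited, in which 1 unit is a 2-fold difference, and precision is limited by there being 3 arrays per group. In bulk cultures, fewer cells of a type and less RNA per cell cannot be told apart.

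Some genes of epithelial cells respond to a signal within minutes, before new protein is needed. These immediate early genes, among them members of the EGR, NR4A and FOS families, are switched on by kinases, calcium and the serum response factor SRF, which also reads the state of actin filaments through its partners. A further receptor, AhR (aryl hydrocarbon receptor), senses flat ring-shaped organic molecules. It and the metal sensor MTF1 drive other sets of targets, cytochrome P450 enzymes and metallothioneins among them.

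The 6 arrays were close to each other, with correlations between 0.9951 and 0.9984, and array medians over the series lay between 7.1529 and 7.2051. The label of the cells was set against marker genes. KRT8 (11.89 ± 0.03 in MWCNT cells and 12.01 ± 0.03 in control cells), KRT18 and KRT7, keratins of simple epithelium, were above the table's median of 7.18, and CDH1, ITGB4 and ITGA6 lay above it. KRT14, KRT19 and EPCAM lay below it, as did the secretory and ciliated markers SCGB1A1, MUC5AC, MUC5B, FOXJ1 and DNAI1. Of the 32 markers tested for all cell types, 0 passed in MWCNT against control cells by limma, and their differences lay between -0.23 and 0.18. Among the 17 immune, fibroblast, endothelial and alveolar markers, 4 lay above the table's median. At 24 h, 2 arrays, 1 exposed and 1 control, often lay with the other group. Among genes whose remaining arrays differed by more than 0.3, both of these arrays were nearer the other group in 51 of 84 genes (60.7%). Over the other pairs of arrays that share was 0.0 to 13.5% at 24 h, and over all pairs at 1 h it was 0.5 to 8.6%. Whether the labels of these 2 arrays were exchanged, or whether an array differed for another reason, was not tested. Either bears on every 24 h value below. Those values are given with and without the 2 arrays.

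After 1 h, 203 genes had changed in MWCNT cells, 1.7% of the 11963 tested, by limma with Benjamini-Hochberg adjustment at 0.05. Of these, 151 rose (1.26%) and 52 fell (0.435%). Of the 151, 18 rose by more than 2-fold and 2 by more than 4-fold, and the median rise was 0.56. Of the 52, 1 fell by more than 2-fold, and the median fall was -0.28. In 202 of the 203 genes the 3 exposed arrays lay all above or all below the 3 controls, which was true of 17.4% of all genes, and the exception was ZNF430. The median difference over all genes was -0.0211. The gene lists used below were chosen with earlier results of these data known. A list's share set beside that of all genes therefore describes the list and tests nothing. The count moved with the arrays fitted: it was 91 without the third exposed array, 97 without the second control, 118 without the second exposed array and 120 without the first control, and 84 when the 6 arrays were fitted alone.

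**Figure D1:**
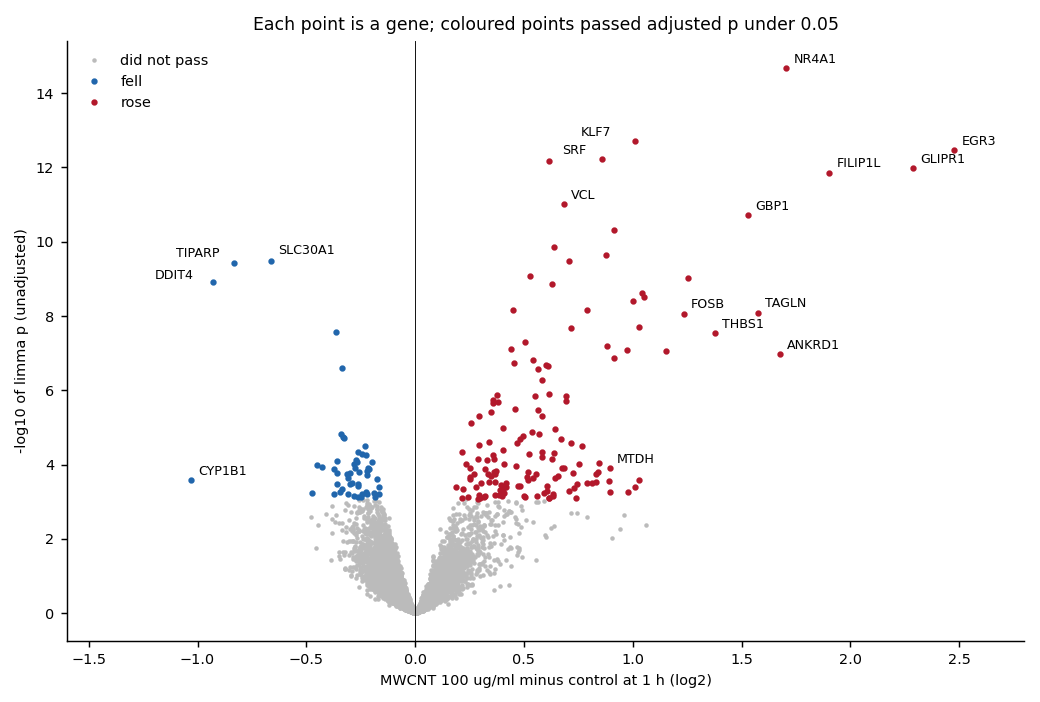
Difference of MWCNT 100 ug/ml minus control at 1 h (x axis, log2) against -log10 of the unadjusted limma p (y axis) for each gene, with Y-linked genes and the X-inactivation transcripts not drawn; red genes rose, blue genes fell and grey genes did not pass an adjusted p of 0.05. EGR3, GLIPR1, FILIP1L and NR4A1 stand at the far right with differences of 2.48 to 1.71, and CYP1B1 is farthest left at -1.03.

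Transcription factors of the EGR and NR4A families included the gene with the largest rise. Of the 6 members measured, 4 rose and 0 fell, and their median difference was 0.84, against -0.02 over all genes. EGR3, a zinc finger factor induced by growth factor and calcium signals, read 11.48, 11.26 and 11.40 on the MWCNT arrays, against 9.35, 8.72 and 8.63 on the control arrays. The first control was the highest of the 3 and still lay well below every exposed array, and the difference was 2.48 ± 0.17 (SE), 5.57-fold (adjusted p = 1.38e-09). NR4A1, a nuclear receptor that binds DNA without a known hormone, read 10.50, 10.37 and 10.41 in MWCNT cells, against 8.70, 8.78 and 8.69 in control cells. Its arrays were tight in both groups and it had the smallest p of all genes, with a difference of 1.71 ± 0.10 (adjusted p = 2.53e-11). The other probe sets of NR4A1 above the table's median differed by only -0.11 and 0.23. NR4A3, its close relative, read 8.37, 8.49 and 8.80 in MWCNT cells, against 7.41, 7.41 and 7.37 in control cells, a rise of 1.15 ± 0.15 (adjusted p = 3.07e-05), and EGR4 rose by 0.52 ± 0.11 (adjusted p = 0.00769). EGR1, the best known member of its family, did not pass: its values were 13.66, 13.68 and 13.48 in MWCNT cells and 13.71, 13.75 and 13.52 in control cells (adjusted p = 0.887). NR4A2 differed by 0.04 (adjusted p = 0.943). The 4 rises held without any 1 array. EGR4 was dim, with a mean of 6.97 in MWCNT cells, under the table's median of 7.18. With dim genes left out, 4 members were tested and 3 rose.

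AP-1 factors, the FOS, JUN and ATF proteins that bind DNA as pairs, rose in part. Of 10 measured, 3 rose and 0 fell, with a median of 0.19 and a count of 2 to 5 under the alternatives (5 with only the 15 arrays at 1 h, 2 in the fit of the 6 arrays alone). FOSB read 10.40, 10.54 and 10.22 in MWCNT cells, against 9.24, 9.24 and 8.97 in control cells, a rise of 1.24 ± 0.14 (adjusted p = 3.99e-06). ATF3, a stress-induced member, rose by 0.70 ± 0.11 (adjusted p = 0.00045) and FOSL2 by 0.41 ± 0.10 (adjusted p = 0.0391). FOSL2 did not pass without the first or the third exposed array or the first or the second control (adjusted p up to 0.281). FOS itself read 9.65, 9.57 and 9.31 in MWCNT cells, against 9.41, 9.37 and 9.29 in control cells and did not pass (adjusted p = 0.657), and JUN differed by 0.41 (adjusted p = 0.0944) with no overlap between its groups.

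Among the KLF factors, zinc finger regulators of growth and differentiation, 3 of 11 rose, 0 fell and all 11 differences were above 0. KLF7 had arrays at 9.26, 9.34 and 9.39 in MWCNT cells, against 8.26, 8.25 and 8.44 in control cells, a rise of 1.01 ± 0.07 (adjusted p = 1.19e-09). KLF6 rose by 1.00 ± 0.11 (adjusted p = 2.09e-06), and its other probe set above the table's median differed by 1.00 as well. KLF5 rose by 0.54 ± 0.13 (adjusted p = 0.0205), a call lost without the first or the third exposed array or the second control (adjusted p up to 0.168). Other regulators among the 30 largest rises were CITED2, a coactivator that competes for CBP and p300 (1.05 ± 0.12), SOX9, a factor of airway and cartilage progenitors (0.91 ± 0.12), ARID5B (0.91 ± 0.08) and ZNF281 (1.03 ± 0.13).

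**Figure D2:**
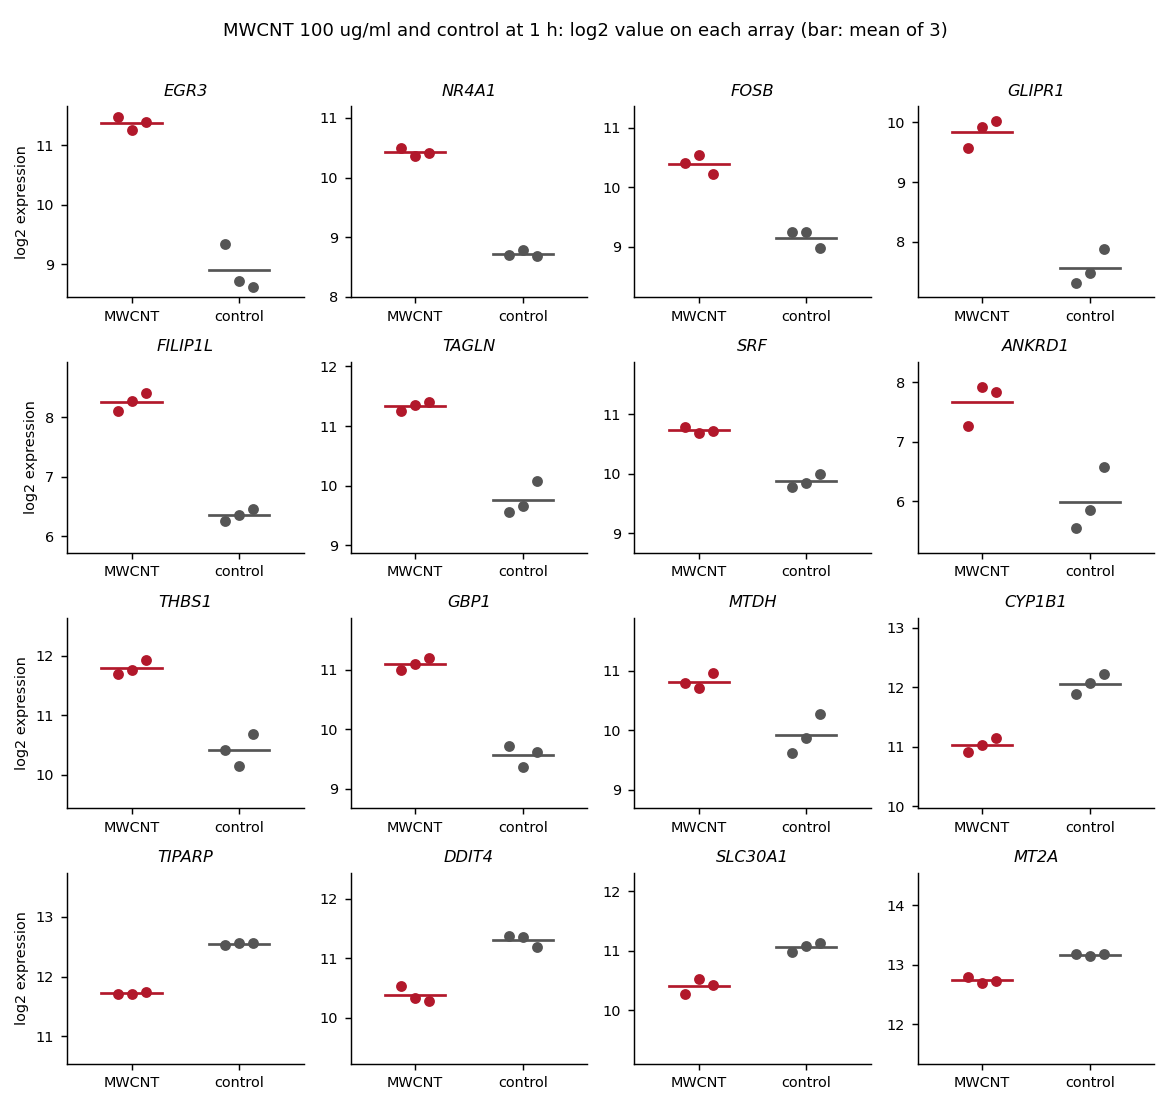
log2 expression of 16 genes on each array at 1 h, MWCNT 100 ug/ml on the left and control on the right of each panel; points are arrays, bars are means of 3, and every panel spans the same number of log2 units. In all 16 genes the groups do not overlap, which was a condition for naming them. The control arrays of ANKRD1 run between 5.56 and 6.57, those of TIPARP between 12.53 and 12.57.

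Among targets of SRF and genes of the actin cytoskeleton, 10 of 20 rose and 0 fell, and the median was 0.29. TAGLN, an actin-binding protein of contractile cells, read 11.26, 11.35 and 11.40 in MWCNT cells, against 9.55, 9.65 and 10.08 in control cells, a rise of 1.58 ± 0.18 (adjusted p = 3.92e-06). FILIP1L, a filamin-associated protein, read 8.10, 8.27 and 8.40 in MWCNT cells, against 6.25, 6.36 and 6.46 in control cells, a rise of 1.90 ± 0.14, 3.74-fold (adjusted p = 2.38e-09). SRF, the factor after which the class is named, was itself among the risers at 10.78, 10.69 and 10.72 in MWCNT cells, against 9.77, 9.84 and 10.00 in control cells (0.86 ± 0.06, adjusted p = 1.59e-09). The filament-stabilising tropomyosins TPM4 (0.72 ± 0.09) and TPM1 (0.64 ± 0.06) and the focal adhesion protein VCL (0.68 ± 0.06) also rose. VCL did not pass with probe sets averaged. CNN2, FHL2, ACTN1 and MYH9 rose by 0.28 to 0.33. MYL9 (0.57, adjusted p = 0.0564) and ZYX (0.46, adjusted p = 0.105) did not pass although their groups did not overlap, and ACTB differed by 0.11. The count of 10 ranged from 7 to 12 over the alternative settings and omissions of 1 array, with 7 when the 6 arrays were fitted alone and 7 without the second control. Among small GTPases and CDC42 effectors, 2 of 12 rose and 1 fell: RND3, which opposes RhoA, rose by 0.61 ± 0.10, CDC42EP3 rose by 0.63 ± 0.07 and CDC42EP2 fell by 0.36 on the log2 scale. CDC42EP2 lost its call without the first exposed array or the third control (adjusted p up to 0.0693), in the fit of the 6 arrays alone and with probe sets averaged.

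The CArG box, the DNA element that SRF binds, was searched on both strands of the RefSeq promoter windows (250 bases before to 50 after each gene start, build GRCh38.p14). It was present in 1.29% of all 35116 windows and in the windows of 5 of the 9 called SRF and actin genes that have one: FILIP1L, SRF, TPM4, CNN2 and FHL2. Where RefSeq gives several windows for a gene, the window listed first was used. The list itself was written as SRF targets, so the match describes the list and is no independent evidence. The windows of the list's largest called members with a window are shown with the CArG boxes in capitals, FILIP1L at chr3:99876124-99876423 (minus strand) and SRF at chr6:43171019-43171318 (plus strand).
FILIP1L: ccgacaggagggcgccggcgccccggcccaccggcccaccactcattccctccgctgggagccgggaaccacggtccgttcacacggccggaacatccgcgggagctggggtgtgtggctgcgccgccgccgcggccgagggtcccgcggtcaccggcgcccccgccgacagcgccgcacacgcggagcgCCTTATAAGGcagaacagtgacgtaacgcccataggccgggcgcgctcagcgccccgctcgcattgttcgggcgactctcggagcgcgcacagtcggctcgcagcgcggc
SRF: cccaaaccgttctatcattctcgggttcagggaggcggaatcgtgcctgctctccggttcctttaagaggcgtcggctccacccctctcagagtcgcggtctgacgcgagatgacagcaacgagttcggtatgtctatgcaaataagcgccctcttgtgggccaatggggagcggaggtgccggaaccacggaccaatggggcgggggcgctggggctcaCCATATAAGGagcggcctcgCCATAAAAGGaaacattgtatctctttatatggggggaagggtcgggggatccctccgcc

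The SRF window holds 2 boxes, starting 30 and 10 bases before the gene start, and the FILIP1L window holds 1, starting 60 bases before it. No CArG box, no cyclic AMP response element (TGACGTCA) and no AP-1 site (TGANTCA) was found in the first-listed windows of NR4A1, NR4A3 or EGR4. Of FOSB, ATF3 and FOSL2, only FOSL2 held any of these, an AP-1 match. These letters are absent from these windows only.

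Targets and partners of YAP, a coactivator that enters the nucleus when cells are stretched or spread, rose in 6 of 13 cases, with 0 falls, a median of 0.10 and counts of 5 or 6 under every alternative. ANKRD1, a nuclear ankyrin-repeat protein, read 7.26, 7.92 and 7.84 in MWCNT cells, against 5.56, 5.86 and 6.57 in control cells, a rise of 1.68 ± 0.22 (adjusted p = 3.58e-05), with the third control the highest of its group. THBS1, a matrix glycoprotein, read 11.69, 11.76 and 11.93 in MWCNT cells, against 10.41, 10.15 and 10.69 in control cells, a rise of 1.38 ± 0.17 (adjusted p = 1.17e-05). F3 rose by 0.88 ± 0.11, CCN2 by 0.54 ± 0.07, AMOTL2 by 0.45 ± 0.05 and CCN1 by 0.34 ± 0.07. YAP1 (0.10) and its DNA-binding partner TEAD1 (0.04) did not pass. The TEAD motif GGAATG, on either strand, was in the windows of ANKRD1, THBS1 and CCN2, 3 of the 5 called members with a window, and in 14.0% of all windows. F3, the tissue factor that starts clotting, and TFPI2, a protease inhibitor (0.50 ± 0.13), were the 2 of 8 plasminogen and tissue factor genes that rose. TFPI2 lost its call without any 1 of the 6 arrays (adjusted p up to 0.223).

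Other large risers stood outside these families. GLIPR1, a secreted or membrane-bound protein induced by p53 in some cells, read 9.57, 9.92 and 10.03 in MWCNT cells, against 7.31, 7.47 and 7.87 in control cells, 4.89-fold (2.29 ± 0.17, adjusted p = 2.07e-09). Its other probe set above the table's median differed by 2.58. GBP1, a guanylate-binding protein best known for induction by interferon, read 10.99, 11.10 and 11.19 in MWCNT cells, against 9.72, 9.36 and 9.61 in control cells, a rise of 1.53 ± 0.13 (adjusted p = 2.55e-08), and its other probe set differed by 1.75. Of 21 interferon-stimulated genes, GBP1 and GBP2 rose, IRF1 fell by 0.23 on the log2 scale and 18 did not pass, with a median of -0.06. PTGER4, a prostaglandin E2 receptor (1.04 ± 0.11), EPPK1, a plakin of the keratin network (1.25 ± 0.13), DKK1, a secreted Wnt inhibitor (0.97 ± 0.13), TUFT1 (0.88 ± 0.08), the Notch ligand JAG1 (0.79 ± 0.09) and the EGF receptor ligand EREG (0.77 ± 0.15) also rose. EREG did not pass without the second control (adjusted p = 0.0685).

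**Figure D3:**
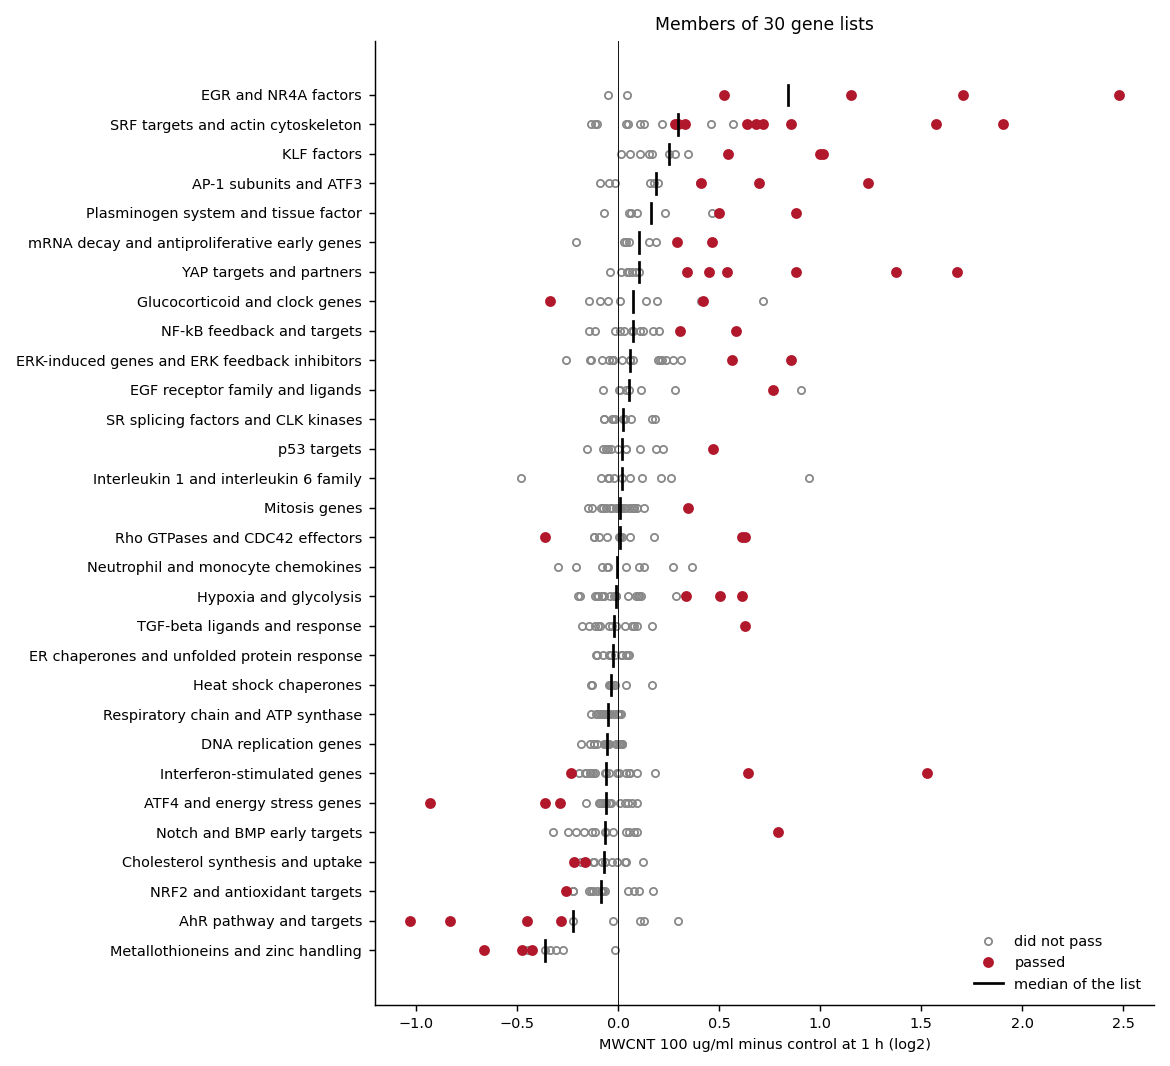
Difference of MWCNT 100 ug/ml minus control at 1 h (x axis, log2) for each measured member of 30 gene lists (rows, ordered by median); filled points passed an adjusted p of 0.05, open points did not, and black bars are list medians. The EGR and NR4A list has the highest median, 0.84, and the metallothionein list the lowest, -0.36.

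Of 21 ERK-induced genes and ERK inhibitors, SRF, already counted in the SRF list, and the phosphatase DUSP5 (0.56 ± 0.08) rose, 9.5% against 1.26% of all genes, and 0 fell. Of 13 NF-kB feedback genes and targets, TNFAIP3, an ubiquitin-editing brake on the pathway, rose by 0.58 ± 0.12 (adjusted p = 0.00881) and NFKBIA, the inhibitor that holds NF-kB in the cytoplasm, by 0.30 ± 0.07, which made 15.4% of that list. NFKBIA lost its call without the first or the third exposed array or the first or the second control (adjusted p up to 0.129). No neutrophil or monocyte chemokine passed among 10 and no interleukin 1 or 6 family gene among 11. Only 3 of these chemokines and 4 of these interleukin genes had a mean above the table's median in any group. With 1.7% of all genes called, lists this short and dim can hold no call, so this does not show that the genes were unchanged. CXCL8, the neutrophil attractant, read 7.49, 7.26 and 7.14 in MWCNT cells and 7.06, 6.87 and 6.87 in control cells, groups that did not overlap yet with a difference of 0.36 ± 0.30 (SE, adjusted p = 0.704). IL6R differed by 0.94 ± 0.31 without passing (adjusted p = 0.146), and passed when only the 15 arrays at 1 h were fitted (adjusted p = 0.00748). Among further lists, 0 of 12 unfolded protein response genes, 0 of 9 heat shock genes and 0 of 20 replication genes passed. The same held for 0 of 19 respiratory chain genes and 0 of 11 SR splicing factors and CLK kinases. In lists this short, 0 calls is near the 1.7% called over all genes. The ATF4 and NRF2 stress lists, which did hold calls, are given below. The only call among 12 p53 targets was PLK2 (0.47 ± 0.09) and among 21 mitosis genes KIF23 (0.35 ± 0.08). Hypoxia and glycolysis genes gave 3 rises of 21, PFKFB3, an activator of glycolysis (0.61 ± 0.09), the histone demethylase KDM3A (0.51 ± 0.06) and the vasodilator ADM (0.34 ± 0.08), while SLC2A1 (-0.19) and VEGFA (0.11) did not pass. ADM lost its call without the second or the third exposed array or the first or the second control (adjusted p up to 0.186), and KIF23 without the second or the third exposed array or the second control (adjusted p up to 0.125). In the mRNA decay list ZFP36L1, which binds AU-rich mRNA (0.46 ± 0.10), and PELI1 (0.29 ± 0.08) rose among 8, and SKIL, a repressor of TGF-beta signalling (0.63 ± 0.13), was the only call among 14 TGF-beta genes. PELI1 passed in no omission of 1 array (adjusted p up to 0.281), ZFP36L1 did not without the first exposed array or the second control (adjusted p up to 0.135), and SKIL did not without the third exposed array or the first control (adjusted p up to 0.09).

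Of 9 genes of the AhR pathway, 4 fell and 0 rose, with a median of -0.22. CYP1B1, an AhR-induced cytochrome P450, read 10.92, 11.03 and 11.15 in MWCNT cells, against 11.88, 12.08 and 12.22 in control cells, the largest called fall at 1.03 on the log2 scale. Its other probe sets differed by -1.30 and -0.72. The fit over all groups gave CYP1B1 a difference of -1.03 ± 0.24 (adjusted p = 0.0227), and the call was lost without any 1 array other than the first control (adjusted p up to 0.1). TIPARP, an ADP-ribosylating enzyme that feeds back on AhR, read 11.70, 11.71 and 11.74 in MWCNT cells, against 12.53, 12.56 and 12.57 in control cells (-0.83 ± 0.08, adjusted p = 2.9e-07) and kept its call without any 1 array. CYP1A1, the classic target, was dim, at 6.14, 6.21 and 6.43 in MWCNT cells, against 6.82, 6.70 and 6.64 in control cells (-0.45 ± 0.10, adjusted p = 0.0124). The retinal dehydrogenase ALDH1A3 fell by 0.28 on the log2 scale. CYP1A1 did not pass without the first or the second exposed array or the first control, and ALDH1A3 passed only without the second control among the 6 omissions (adjusted p up to 0.203). AHR itself differed by 0.30 and did not pass (adjusted p = 0.131). The count of 4 fell to 1 without the first or the second exposed array, and to 2 without the third exposed array, the first control or the third control, and was 2 in the fit of the 6 arrays alone.

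Metallothioneins are small proteins that bind zinc and copper, and SLC30A1 is a zinc exporter. All 9 measured genes of this list had differences below 0, as had 7101 of the 11963 genes tested. The list's median was -0.36, and 3 fell (33.3%, against 0.435% of all genes). SLC30A1 read 10.27, 10.52 and 10.42 in MWCNT cells, against 10.98, 11.08 and 11.13 in control cells (-0.66 ± 0.07, adjusted p = 2.88e-07), and held without any 1 array. MT2A, the main metallothionein of many cells, read 12.79, 12.69 and 12.73 in MWCNT cells, against 13.18, 13.14 and 13.17 in control cells (-0.43 ± 0.09, adjusted p = 0.0139), and MT1F read 11.63, 11.55 and 11.58 in MWCNT cells, against 12.14, 12.05 and 12.00 in control cells (-0.48 ± 0.12, adjusted p = 0.0393). Both groups were tight, and their lack of overlap was a condition for naming the largest falls. MT2A lost its call in 4 of the 6 omissions of 1 array (adjusted p up to 0.0716), keeping it without the first exposed array or the third control. MT1F lost its call in all 6 (adjusted p up to 0.144). MT1E and MT1X differed by -0.45 and -0.36 without passing. The metal sensor MTF1 differed by -0.01. Metallothionein probe sets can pick up sister genes of near-identical sequence, so the members are not independent. The list's count of 3 became 7 with the 15 arrays at 1 h or with array weights, 5 in the fit of the 6 arrays alone or with dim genes left out, 2 with probe sets averaged or without the first exposed array or the third control, and 1 without the second or the third exposed array or the first or the second control. The zinc importer SLC39A4, outside the list, fell by 0.23 on the log2 scale (adjusted p = 0.0389).

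The windows of the largest called AhR and zinc genes that have one are printed to show the letters searched. The AhR core GCGTG, on either strand, is in capitals in TIPARP at chr3:156674340-156674639 (plus strand) and CYP1A1 at chr15:74725479-74725778 (minus strand).
TIPARP: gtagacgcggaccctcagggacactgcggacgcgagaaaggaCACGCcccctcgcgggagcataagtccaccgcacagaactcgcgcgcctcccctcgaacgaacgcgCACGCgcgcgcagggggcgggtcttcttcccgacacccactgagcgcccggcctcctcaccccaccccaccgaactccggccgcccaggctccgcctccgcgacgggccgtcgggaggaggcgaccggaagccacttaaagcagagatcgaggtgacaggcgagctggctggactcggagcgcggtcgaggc
CYP1A1: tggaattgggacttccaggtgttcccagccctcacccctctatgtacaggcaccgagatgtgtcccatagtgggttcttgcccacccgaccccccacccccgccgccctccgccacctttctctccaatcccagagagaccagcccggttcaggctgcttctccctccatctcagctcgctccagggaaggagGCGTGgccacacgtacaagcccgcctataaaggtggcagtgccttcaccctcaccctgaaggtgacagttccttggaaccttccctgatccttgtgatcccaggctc
The core of the metal response element, TGCACNC or TGCGCNC on either strand, is in capitals in SLC30A1 at chr1:211579112-211579411 (minus strand) and MT2A at chr16:56608334-56608633 (plus strand).
SLC30A1: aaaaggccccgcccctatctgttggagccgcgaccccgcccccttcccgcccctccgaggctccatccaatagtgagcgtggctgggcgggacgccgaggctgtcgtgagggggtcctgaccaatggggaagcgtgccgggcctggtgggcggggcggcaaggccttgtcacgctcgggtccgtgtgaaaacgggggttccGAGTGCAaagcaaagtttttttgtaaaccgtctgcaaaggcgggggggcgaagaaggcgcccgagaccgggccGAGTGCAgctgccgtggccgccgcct
MT2A: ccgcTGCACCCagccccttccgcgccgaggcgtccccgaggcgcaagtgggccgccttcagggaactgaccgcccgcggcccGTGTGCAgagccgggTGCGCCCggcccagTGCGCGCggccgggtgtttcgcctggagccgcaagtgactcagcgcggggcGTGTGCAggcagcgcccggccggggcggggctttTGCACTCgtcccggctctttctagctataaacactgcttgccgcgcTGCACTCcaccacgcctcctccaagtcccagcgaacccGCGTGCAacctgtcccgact

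TIPARP held 2 AhR cores and CYP1A1 held 1, and ALDH1A3, the other called member with a window, held 2. The core is short and 36.5% of all windows held it. SLC30A1 held 2 metal response cores and MT2A held 8, some of them letters read from the opposite strand, and 29.6% of all windows held at least 1.

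Energy and stress genes gave 3 falls and 0 rises among the 17 of the ATF4 list, whose median was -0.06. DDIT4, an inhibitor of mTORC1 signalling, read 10.53, 10.33 and 10.28 in MWCNT cells, against 11.38, 11.36 and 11.19 in control cells (-0.93 ± 0.10, adjusted p = 8.22e-07). TXNIP, a brake on glucose uptake, read 11.92, 11.86 and 11.79 in MWCNT cells, against 12.25, 12.18 and 12.23 in control cells (-0.36 ± 0.05, adjusted p = 1.14e-05). Its other probe sets differed by -0.39 and -0.18. DDIT3 fell by 0.29 on the log2 scale, a call lost without the second or the third exposed array or the first or the second control (adjusted p up to 0.219), and the ATF4 targets ASNS, TRIB3 and CHAC1 differed by -0.04, -0.06 and 0.07 without passing. TSC22D3, a glucocorticoid-induced leucine zipper, fell by 0.34 on the log2 scale, while SGK1 of the same list rose by 0.42 but passed in no omission of 1 array (adjusted p up to 0.125). HMOX1 was the only call among 15 NRF2 and antioxidant genes and was a fall of 0.26 on the log2 scale, lost without the second or the third exposed array or the first control (adjusted p up to 0.115). EBP and FDPS, enzymes of cholesterol synthesis, fell by 0.22 and 0.17 on the log2 scale, the 2 calls among 14. FDPS passed only without the third control among the 6 omissions (adjusted p up to 0.143), and EBP did not pass without the third exposed array or the second control (adjusted p up to 0.0842).

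The remaining falls among the 20 largest were small. IMP3, a nucleolar RNA-processing protein (-0.34 ± 0.05, adjusted p = 7.25e-05), CCNJL (-0.33 ± 0.06) and AVPI1 (-0.33 ± 0.06) kept their calls without any 1 array. MT1HL1 (-0.37 ± 0.09), SLC22A4 (-0.37 ± 0.08), the organic anion transporter SLCO4A1 (-0.34 ± 0.08), the actin-capping protein CAPG (-0.31 ± 0.07), ZNHIT2 (-0.30 ± 0.07) and the fucosyltransferase FUT1 (-0.30 ± 0.07) each lost it in at least 2 of the 6 omissions.

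Of the 30 largest rises, 22 kept their call without each array in turn, and 8 did not: HELLS, ZNF12, MTDH, ESF1, PPIG, DYNC1LI2, BBX and COL4A4. Of the 20 largest falls, 8 kept their call without each array in turn and 12 did not. In all 8 risers that lost it the third array was the highest of both groups. MTDH read 10.79, 10.70 and 10.96 in MWCNT cells, against 9.62, 9.87 and 10.27 in control cells (0.89 ± 0.20, adjusted p = 0.014), but its 2 other probe sets above the table's median differed by only 0.03 and 0.04. PPIG read 10.39, 10.72 and 10.95 in MWCNT cells, against 9.35, 9.79 and 10.24 in control cells (0.89 ± 0.21), with 0.13 to 0.54 on its other probe sets. In MTDH, ESF1, PPIG, DYNC1LI2 and BBX the first control array was the lowest and the third array the highest of the 3. The order of these arrays was not tested as a cause. Each of the 8 lost its call without the third exposed array and without the first control, and the highest adjusted p over the omissions was 0.0992 to 0.243. More widely, 47 of the 151 risers had another probe set above the table's median. There the median difference was 0.55 on the tested set and 0.33 on the others, 45 of the 47 had the same sign, and 11 had a median within 0.1 of 0 on the others (CELF2, DDX52, EIF5, EP300, GOSR1, KIF5B, MTDH, NR4A1, RC3H2, UBE3A and YIPF6). All 8 fallers with another probe set had the same sign there. Whether the probe set or the gene sets these differences was not tested. Numbered zinc finger genes, 212 in all, gave 4 rises (1.9%, against 1.26% of all genes) and 2 falls (0.9%, against 0.435%), and 1 to 5 rises and 0 or 1 fall without 1 array.

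The first further comparison asked whether the response grew with dose. MWCNT at 100 ug/ml differed from 10 ug/ml in 76 genes (0.635%), 67 higher (0.56%) and 9 lower (0.0752%) at the higher dose. This comparison uses the same exposed arrays as the one above, and 10 ug/ml against control shares the controls, so the values are set side by side only. EGR3 averaged 8.90 ± 0.39 in control cells, 10.04 ± 0.25 at 10 ug/ml and 11.38 ± 0.11 at 100 ug/ml (SD, n = 3 each), and the step between the doses was 1.34 (adjusted p = 8.11e-05). GLIPR1 averaged 7.55 ± 0.29, 8.44 ± 0.10 and 9.84 ± 0.24 in the same order. Both also passed at 10 ug/ml against control, where 8 genes were called (0.0669%), 5 higher (0.0418%) and 3 lower (0.0251%). NR4A3 averaged 7.40, 7.41 and 8.55, and F3 differed by 0.02 at 10 ug/ml against control and by 0.88 at 100 ug/ml. FILIP1L, GLIPR1, NR4A1, EGR3, ANKRD1 and NR4A3 had the largest higher values at 100 against 10 ug/ml, from 1.42 to 1.14. DDIT4 (-0.75), SLC30A1 (-0.53), ZNF350 (-0.42), PPP1R3D (-0.36), DDIT3 (-0.31) and TXNIP (-0.30) were lower at 100 than at 10 ug/ml. ZNF350 and PPP1R3D did not pass against control.

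In other genes most of the difference was present at the low dose. TIPARP averaged 12.55 in control cells, 11.95 at 10 ug/ml and 11.72 at 100 ug/ml, so that it had fallen by 0.60 on the log2 scale at the low dose (adjusted p = 0.00089) and the doses differed by -0.23 (adjusted p = 0.424). CDC42EP2 averaged 9.07, 8.67 and 8.71 in the same order. ZNF12 (6.77, 7.70 and 7.78) and PPIG (9.79, 10.59 and 10.69) also had their step by 10 ug/ml in the means, where neither passed against control. The metallothionein MT2A lay between these patterns, at 13.17, 12.99 and 12.74.

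**Figure D4:**
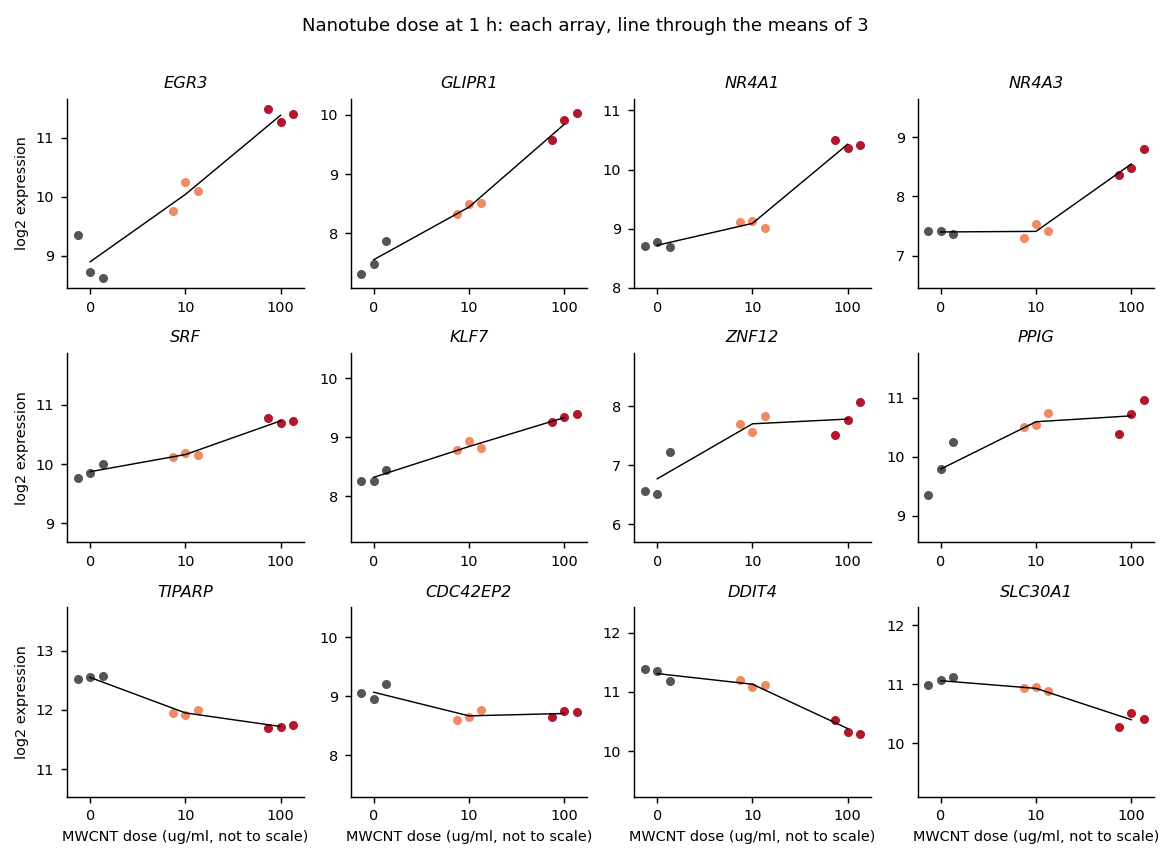
log2 expression of 12 genes at 1 h (y axis) at 0, 10 and 100 ug/ml MWCNT (x axis, categories not to scale); points are arrays and the line joins means of 3. EGR3 and GLIPR1 step up at each dose, NR4A3 only at 100 ug/ml, and TIPARP is already at 11.95 at 10 ug/ml, near its 11.72 at 100 ug/ml.

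The nanobelts served as a particle of other chemistry at the same dose and time. MWCNT cells differed from TiO2-NB cells in 2 genes (0.0167%), both AhR targets and both lower with MWCNT, while 756 genes had an unadjusted p under 0.05. CYP1B1 read 10.92, 11.03 and 11.15 in MWCNT cells, against 12.68, 12.59 and 12.73 in TiO2-NB cells, a difference of -1.63 (95% interval -2.13 to -1.14, adjusted p = 0.00305). TIPARP read 11.70, 11.71 and 11.74 in MWCNT cells, against 12.88, 12.84 and 12.94 in TiO2-NB cells, a difference of -1.17 (-1.34 to -1.0, adjusted p = 4.2e-09). In both genes the control arrays lay between the particles. CYP1A1 differed by -0.46 between the particles (adjusted p = 0.108) and ALDH1A3 by -0.32 (adjusted p = 0.156). None of the 30 largest risers passed between the particles, and the intervals still allow a difference. The interval was -0.02 to 0.70 for EGR3, -0.56 to 0.14 for GLIPR1, -0.06 to 0.34 for NR4A1, -0.39 to 0.37 for TAGLN and -0.18 to 0.11 for KLF7. Among those 30 it lay above 0 after rounding for NR4A3 (0.10 to 0.73), SOX9 (0.14 to 0.65), SRF (0.05 to 0.31), FILIP1L (0.01 to 0.60) and GBP1 (0.03 to 0.56) and below 0 for COL4A4 (-0.92 to -0.11), each with an adjusted p above the threshold. For CITED2 (0.0 to 0.48) and KLF6 (-0.46 to 0.0), which did not pass either, 1 end rounded to 0. Fallers whose interval lay below 0 without passing included DDIT4 (-0.59 to -0.19), SLC22A4 (-0.55 to -0.21) and TSC22D3 (-0.43 to -0.17). The count of 2 rose to 8 with dim genes left out, to 7 with a variance trend, to 5 with array weights and to 4 with only the 15 arrays at 1 h.

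The last comparison asked whether the nanotube effect at 100 ug/ml was the same after 24 h. The effect differed between the times in 80 genes (0.669%): it was higher at 24 h in 14 (0.117%) and lower in 66 (0.552%), and without the 2 arrays doubted above in 111, 24 higher and 87 lower, of which 56 genes were called in the same direction both ways. With array weights, which give arrays far from the fit less weight, the balance turned, with 405 genes, 243 higher and 162 lower at 24 h. At 24 h against its own control, 0 genes passed by limma (661 at an unadjusted p under 0.05), and 58 passed without the 2 arrays, 17 higher and 41 lower. With array weights 722 passed, 412 higher and 310 lower, and without the first exposed array alone 1 passed. Those 2 arrays were chosen because they lay nearest the other group. Leaving them out therefore widens the gap by construction in genes where both lay so. It can narrow in others, as in MTDH (0.50 at 24 h with all arrays and 0.10 without the 2). EGR3 differed from control by 0.01 at 24 h (0.09 without the 2 arrays) and by 2.48 at 1 h, a change of -2.46 ± 0.25 (adjusted p = 1.97e-06, and 4.24e-05 without the 2 arrays). GLIPR1, FILIP1L, NR4A1 and THBS1 differed from control by 0.08, 0.02, -0.13 and -0.18 at 24 h, and by 0.11, 0.21, -0.24 and -0.17 without the 2 arrays, and their changes passed both ways. ANKRD1 (0.12 at 24 h and 0.36 without the 2 arrays, change -1.55) passed with all arrays (adjusted p = 0.0139) and not without the 2 (adjusted p = 0.0897). TAGLN differed by 0.22 at 24 h with all arrays and by 0.69 without the 2 (adjusted p = 0.0384). SRF differed by 0.01 at 24 h and KLF7 by 0.14, and by 0.05 and 0.06 without the 2 arrays.

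Among the falls at 1 h, DDIT4 differed from control by -0.19 at 24 h (-0.37 without the 2 arrays) and by -0.93 at 1 h (adjusted p = 0.00564 for the change, 0.0512 without the 2 arrays). TIPARP differed by -0.20 at 24 h and by -0.83 at 1 h. Without the 2 arrays the 24 h value of TIPARP was -0.43 (adjusted p = 0.000194) and the change still passed (adjusted p = 0.00523). With all arrays no 24 h difference passed (smallest limma adjusted p over all genes 0.735). Leaving out the 2 arrays tends by construction to widen the gap, so the 24 h p values without them do not show that a fall persisted. CYP1B1 differed by -0.30 at 24 h with all arrays and by -1.06 without the 2 (adjusted p = 7.56e-07), next to -1.03 at 1 h, and its change over time did not pass either way (adjusted p = 0.686 and 0.987). MT2A, likewise, differed by -0.19 at 24 h with all arrays and by -0.45 without the 2 (adjusted p = 0.00134), next to -0.43 at 1 h. SLC30A1 (-0.15 at 24 h, -0.23 without the 2 arrays) and TXNIP (-0.02 and 0.03) passed for the change with and without the 2 arrays. MTDH differed by 0.50 at 24 h with all arrays and by 0.10 without the 2, and its change over time passed only without them (adjusted p = 0.0143 without the 2 arrays and 0.821 with all). On 1 control array at 24 h MTDH read 10.08, against 11.31 to 11.43 on the other control and MWCNT 100 ug/ml arrays. The reason was not tested.

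**Figure D5:**
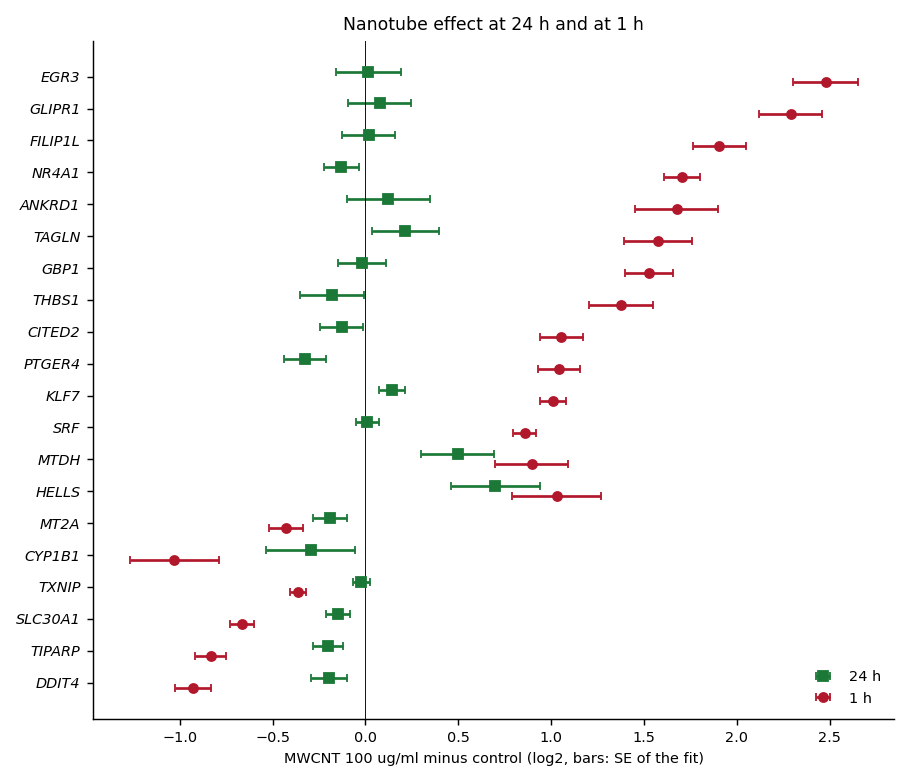
Difference of MWCNT 100 ug/ml minus control (x axis, log2, bars are SE of the fit on all arrays) at 24 h (green squares, upper) and at 1 h (red circles, lower) for 20 genes. The 8 largest risers lie between -0.18 and 0.22 at 24 h, and without the 2 doubted arrays between -0.24 (NR4A1) and 0.69 (TAGLN). CYP1B1, MT2A and TIPARP lie below 0 at 24 h, where 0 genes passed with all arrays. Without the 2 doubted arrays, a choice that tends by construction to widen the gap, their 24 h values were -1.06, -0.45 and -0.43.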

How the data were processed

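The arrays are Affymetrix gene expression arrays. Per the submitters' processing notes, the deposited log2 values were made with RMA (robust multi-array average), which corrects background, normalises arrays by quantiles and summarises probes; its version is not given in the sources used here. Of 22277 probe sets, 19064 had 1 symbol in the platform annotation. limma 3.58.1 (R 4.3.3, statmod 1.5.0) fitted 1 mean per group over 10 groups and 30 arrays (20 residual degrees of freedom), with moderated variances, two-sided tests and Benjamini-Hochberg adjustment over 11963 genes. SE is from that fit and SD from 3 arrays. An exact permutation test of 3 against 3 cannot go below 0.1. The fit was checked on simulated data. Tables were handled with pandas 2.3.3 and numpy 2.4.6 under Python 3.11.15, and matplotlib 3.10.9 drew the plots.

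The comparison and the 31 gene lists were chosen with earlier results of these data known. Named genes are the 30 largest rises and 20 largest falls among calls without overlap and above the table's median of 7.18 in the higher group, up to 6 called members per list (or the largest difference where none passed), and up to 6 per direction in the other comparisons. Members of lists named beyond this rule, and genes with flat second probe sets, were chosen after their values were seen. Promoter windows were to be shown for 2 called members per list; those of NR4A1, NR4A3, FOSB and ATF3 held no searched motif and are not printed, and that of EGR3 was not used here.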

Additional observations from a re-analysis of the deposited data

Results flagged for a closer look

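The effect of MWCNT at 100 ug/ml differed between 24 h and 1 h in 80 genes by the test of that difference in limma (adjusted p under 0.05 over 11963 genes). The effect at 24 h minus the effect at 1 h was above 0 for genes that had fallen at 1 h, with 0.74 for DDIT4, 0.63 for TIPARP, 0.52 for SLC30A1, 0.50 for CDC42EP2, 0.35 for SLC39A4 and 0.34 for TXNIP. It was below 0 for genes that had risen at 1 h, with -2.46 for EGR3, -2.21 for GLIPR1, -1.89 for FILIP1L, -1.84 for NR4A1, -1.56 for THBS1 and -1.55 for ANKRD1. Because the 1 h effect is subtracted, these signs follow for any gene with a large 1 h change and little effect at 24 h. Without the 2 doubted arrays at 24 h, the calls of DDIT4 (adjusted p = 0.0512), CDC42EP2 (0.0584), SLC39A4 (0.0547) and ANKRD1 (0.0897) were lost.

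Of the 3151 probe sets that the annotation pairs with no symbol or with several, which enter no comparison above, 29 changed at 1 h (0.92%), 21 higher and 8 lower in MWCNT cells. They are reported without gene names.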

How the results depend on the processing

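Counts of genes past the threshold moved by over 1.5 times in these settings. When a fit held just the groups compared, they were 84 for MWCNT against control at 1 h (74 rose, 10 fell), 38 for 100 against 10 ug/ml and 32 for 24 h against 1 h. With array weights they were 353 (205 rose, 148 fell), 118 and 405 (243 higher and 162 lower at 24 h, where all arrays weighted alike gave 14 and 66) in the same order. For MWCNT against TiO2-NB, the count was 4 with the 15 arrays at 1 h, 8 with dim genes left out (7177 kept), 7 with a variance trend and 5 with array weights. The cause was not tested.

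Leaving out 1 array gave 91 to 210 genes for MWCNT against control, 40 to 60 for 100 against 10 ug/ml, 2 for MWCNT against TiO2-NB, and 50 to 105 for 24 h against 1 h. Against control, the third exposed array (91), the second control (97), the second exposed array (118) and the first control (120) moved it by over 1.5 times. Between the doses these were the first (40) and the third (46) array at 10 ug/ml and the third at 100 ug/ml (47), and between the times the third exposed array and the second control at 1 h (50 each).

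The labels give groups the same replicate numbers, but same-numbered arrays did not all deviate together (correlations -0.0135, 0.0736 and 0.3305, against -0.2936 to 0.2163 for other pairings), and not every array correlated best with its own number. With the replicate number as a block, the counts were 223, 69, 3 and 71 in the order used above; of the named genes called, ALDH1A3 and PELI1 did not pass. Cyclic loess gave 183 rises and 39 falls, median centring 150 and 59. No called difference of a named gene changed sign; medians of lists near 0 did, as for ERK genes (0.06, and -0.02 with array weights) and heat shock genes (-0.03, and 0.02 without the first exposed array). Of 87 named genes called, 38 kept their call in every alternative that tested them. Leaving out the 2 doubted arrays, chosen after seeing the data, gave 111 genes for 24 h against 1 h. For MWCNT against control at 24 h, 722 genes passed with array weights (412 higher, 310 lower), 58 without the doubted pair and 0 or 1 under the other settings.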
